A study of Caenorhabditis elegans with 10 samples.

Results

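Eggshell building genes are the genes whose products make up or assemble the shell that each fertilized C. elegans egg receives. The group described here holds 10 genes out of 46589 listed: cbd-1, perm-2, perm-4, egg-1, egg-2, chs-1, cpg-1, cpg-2, cpg-3 and egg-6. They were listed by name, with earlier results of these data known. They were found by matching the listed sequence names to gene symbols of the Ensembl annotation of WBcel235. All 10 were present, and all 10 passed the filter on low counts that left 15924 genes for testing.

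RNA of whole worms of the him-5 strain was sequenced from hermaphrodites and from males. A mutation in him-5 raises the share of males among the offspring, and both sexes carried it, so no wild-type animals stand beside these values. Each sex gave 1 library at each of 5 ages: late L3 larvae aged 30–34 h, early L4 larvae aged 36–40 h, late L4 larvae aged 42–46 h, and young adults aged 48–52 h and 54–58 h. Ages count from hatching. Worms were kept at 20 °C on NGM agar with OP50 bacteria, and the comparison is between the sexes at each age and between ages within a sex.

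The shell of the nematode egg is laid down in layers soon after the sperm enters. The outer vitelline layer holds CBD-1, PERM-2 and PERM-4 and is in place on the oocyte before fertilization, the middle layer is chitin, and the inner layer is made of chondroitin proteoglycans released from the egg's cortical granules. Oocytes form late in development in hermaphrodites, and males make sperm but no oocytes.

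Between 8189325 and 18480591 reads were assigned to genes in the hermaphrodite libraries, and between 10742873 and 27907544 in the male libraries. In order of age, the summed level of 6 oocyte markers, led by rme-2, in males was 124%, 82.8%, 13.3%, 4.74% and 4.45% of that in hermaphrodites, with no marker at 0 reads. That of 6 yolk protein genes of the hermaphrodite intestine, led by vit-6, was 70.4%, 2.70%, 4.05%, 0.346% and 1.18%, with 2 markers at 0 reads in males in early L4. The male library of 54–58 h had 25.4% of its reads not aligned, the highest share of the 10 libraries. Levels below are given as CPM, reads scaled to 1000000 reads assigned to genes, with TMM factors. Each single age has 1 library per sex and therefore no test, and the 95% intervals given with ratios of 2 libraries are exact binomial intervals that cover counting error only.

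As a group, the eggshell genes summed to nearly the same level in both sexes in late L3 larvae and were far apart in young adults. Their summed level in hermaphrodites was 192, 606, 4254, 10340 and 13156 CPM in order of age, against 202, 297, 515, 529 and 549 CPM in males. The male sum was thus 105%, 49%, 12.1%, 5.12% and 4.17% of the hermaphrodite sum. In whole animals, fewer cells of a type and less RNA per cell cannot be told apart.

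**Figure D1:**
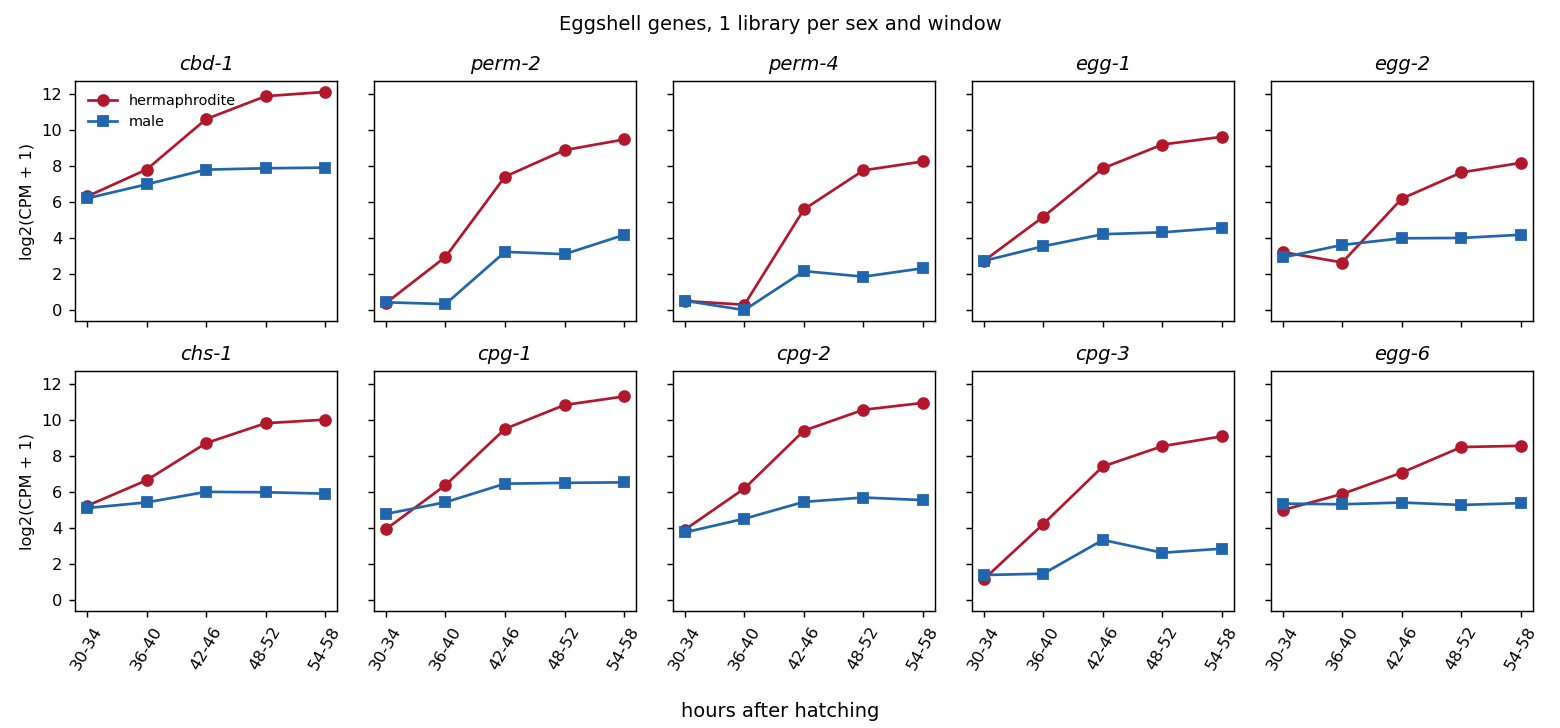
Level of each of the 10 eggshell genes in the 10 libraries, as log2(CPM + 1), against the age of the animals in hours after hatching. Each point is 1 library, with hermaphrodites and males drawn as separate lines; for all 10 genes the hermaphrodite line is at its highest at 54–58 h and lies above the male line from late L4 on.

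The vitelline layer gene cbd-1 parted between the sexes from early L4 on. It encodes a chitin-binding-domain protein needed to anchor the other vitelline proteins, and lies at IV:11372991-11377627 on the plus strand. Hermaphrodites had 78.6, 224, 1567, 3799 and 4470 CPM of cbd-1 in order of age, against 73.1, 126, 223, 235 and 241 CPM in males. The ratio of hermaphrodite to male was 1.08 in late L3, with a 95% interval of 0.974 to 1.19 that includes 1. It was higher at every later age, up to a ratio of 18.6 (17.9 to 19.3) at 54–58 h.

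Both perm-2 and perm-4 encode vitelline layer proteins on which the closed permeability barrier depends. They are head-to-head neighbours on chromosome IV: perm-4 lies at IV:1121494-1125107 on the minus strand and perm-2 at IV:1126790-1128865 on the plus strand, with 1682 bases and no annotated gene between them. Hermaphrodites had 0.313, 6.74, 170, 474 and 715 CPM of perm-2, against 0.348, 0.260, 8.42, 7.63 and 17.1 CPM in males. The hermaphrodite value in late L3 rests on 3 reads, so that the ratio of the oldest to the youngest hermaphrodite library, 2285, has an interval of 782 to 11083. Of the 10 genes, perm-2 was the one furthest apart between the sexes in early L4, with a ratio of 25.9 (11.8 to 67.1).

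For perm-4, hermaphrodites had 0.417, 0.228, 47.5, 217 and 306 CPM, against 0.434, 0, 3.49, 2.62 and 4.01 CPM in males. In early L4 these values stood for 2 reads in hermaphrodites and 0 in males, where 0 reads allow up to 0.112 CPM, so no ratio is given. The neighbours stood far apart in reads in the early L4 hermaphrodite library, where perm-2 had 59 reads and perm-4 had 2. From that library perm-4 went up by a factor of 208 (57.2 to 1721) to the next age. From late L4 on the ratio of perm-4 to perm-2 reads was 0.279, 0.458 and 0.428 in hermaphrodites and 0.415, 0.344 and 0.234 in males.

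EGG-1 and EGG-2 are related proteins with LDL-receptor repeats on the oocyte surface. As a pair they are needed for sperm to enter and for a shell to form. The gene egg-1 lies at III:5728180-5730159 on the plus strand and egg-2 at III:7058527-7060583 on the minus strand. Hermaphrodites had 5.63, 35.4, 234, 588 and 792 CPM of egg-1, against 5.65, 10.7, 17.6, 19.0 and 22.8 CPM in males. Hermaphrodites had 8.34, 5.25, 72.2, 200 and 290 CPM of egg-2, against 6.60, 11.3, 14.9, 15.1 and 17.2 CPM in males. Unlike its relative, egg-2 was lower in the hermaphrodite library in early L4, at 0.466 times the male level (0.334 to 0.637), where egg-1 stood at 3.3 times (2.81 to 3.89).

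The ratio of egg-1 to egg-2 reads was 0.675, 6.74, 3.24, 2.94 and 2.73 in hermaphrodites in order of age, against 0.855, 0.95, 1.18, 1.26 and 1.33 in males. After the youngest age the hermaphrodite ratios all lay above the male ones; this pair was picked out after its values were seen. Reads that match both relatives were counted for neither where they aligned to more than 1 place. Besides, egg-1 shares 42 bases of exon with B0244.9 on the other strand, a gene whose level ran between 0.270 and 4.68 CPM in hermaphrodites, against 13.1 and 68.9 CPM in males. Whether counting used strand is not given in the sources used here. Shorter overlaps with another gene's exons touch cpg-3 (36 bases), perm-2 (25 bases) and chs-1 (5 bases).

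CHS-1 is the chitin synthase that makes the chitin of the shell. Its gene, chs-1, lies at I:7554855-7559916 on the plus strand. Hermaphrodites had 37.1, 101, 426, 919 and 1054 CPM of chs-1, against 34.0, 42.5, 64.3, 63.3 and 60 CPM in males. The hermaphrodite library was 1.09 times the male one in late L3 (0.944 to 1.26), 2.36 times in early L4 (2.16 to 2.58) and 17.6 times at 54–58 h (16.4 to 18.9).

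CPG-1 and CPG-2 are chondroitin proteoglycans that also bind chitin, and CPG-3 is a further chondroitin proteoglycan of the egg. Their genes lie at III:4489359-4491392 on the plus strand (cpg-1), III:7102092-7103990 on the minus strand (cpg-2) and I:7244937-7246295 on the plus strand (cpg-3). Hermaphrodites had 14.5, 83.6, 739, 1855 and 2580 CPM of cpg-1, against 26.9, 42.8, 88.5, 91.4 and 93.2 CPM in males. In late L3 cpg-1 was lower in the hermaphrodite library, at 0.538 times the male level (0.437 to 0.659), and at each later age it was higher there.

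For cpg-2, hermaphrodites had 14.2, 73.4, 690, 1544 and 2011 CPM, against 12.7, 22.2, 43.4, 51.5 and 46.5 CPM in males. For cpg-3, hermaphrodites had 1.25, 17.9, 173, 379 and 554 CPM, against 1.65, 1.79, 9.25, 5.25 and 6.32 CPM in males. Of the 10 genes, cpg-3 stood furthest apart between the sexes at 54–58 h, with a ratio of 87.6 (70.5 to 110). The ratio of cpg-1 to cpg-2 reads was 1.02, 1.14, 1.07, 1.20 and 1.28 in hermaphrodites and 2.12, 1.93, 2.04, 1.77 and 2 in males. No hermaphrodite value reached the lowest male value; this pair, too, was picked out after its values were seen.

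EGG-6 is a transmembrane protein with extracellular leucine-rich repeats that is also known to work in outer epithelia such as the excretory duct. Its gene, egg-6, lies at I:8676666-8681325 on the minus strand. Hermaphrodites had 31.4, 59.2, 136, 366 and 384 CPM of egg-6, against 40.5, 39.5, 42.3, 38.4 and 41.3 CPM in males. The male libraries were thus within a narrow band at all 5 ages, and the sexes were closer together than for any other of the 10 genes in young adults. In hermaphrodites the 4 markers of the excretory duct, pore and outer epithelium, led by let-4, summed to 87.3, 88.3, 5.03, 4.37 and 7.09 CPM. In males they summed to 159, 68.7, 19.4, 6.04 and 6.17 CPM. The level of egg-6 did not fall with that sum in either sex. Nor did all 4 markers move alike: lin-48 had 2.87, 2.9, 5.08, 1.99 and 0.617 CPM in males. The tissue source of the egg-6 reads was not tested.

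**Figure D2:**
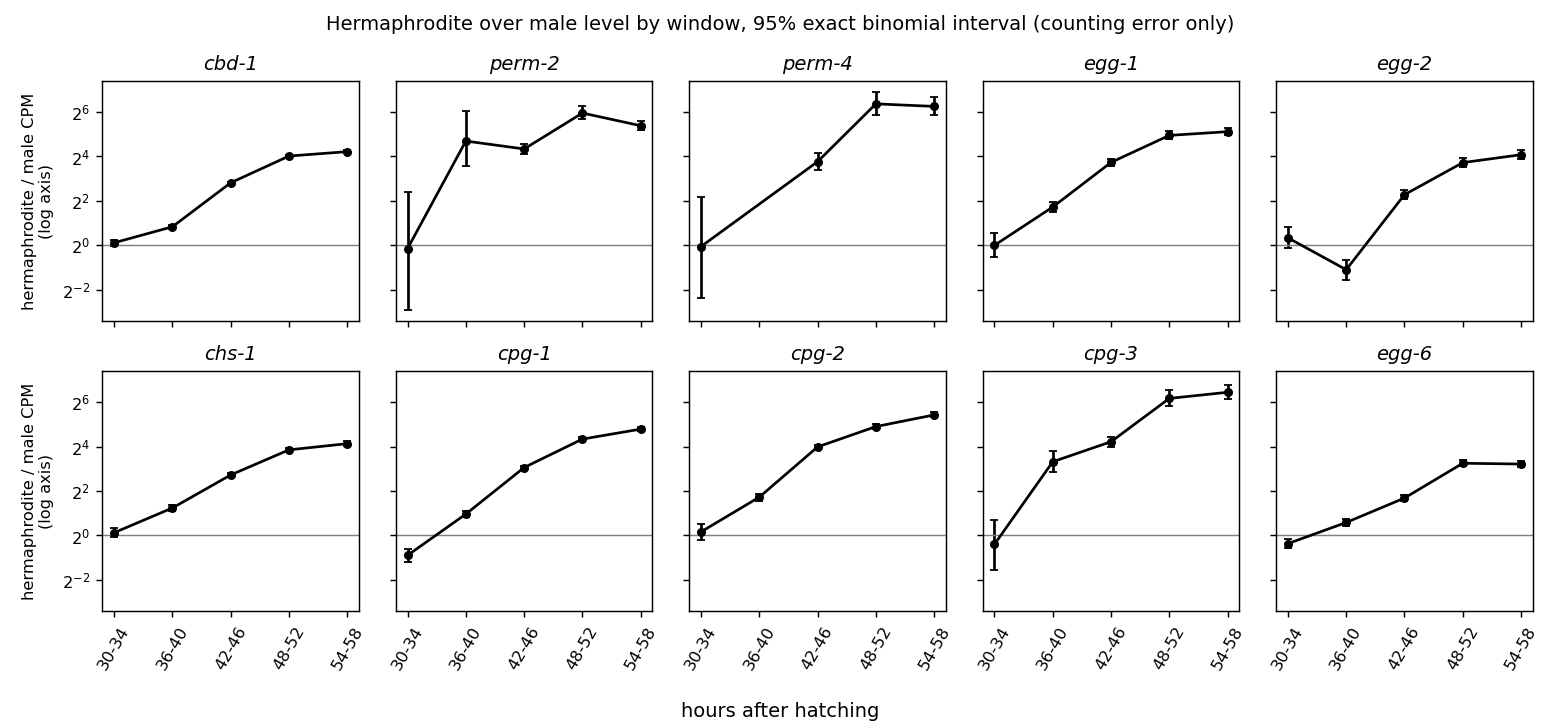
Ratio of the hermaphrodite to the male level of each eggshell gene at each age, on a log axis, with 95% intervals that cover counting error only. All 10 ratios lie above 9 at 54–58 h, from 9.31 for egg-6 to 87.6 for cpg-3; perm-4 has no point in early L4, because it had 0 male reads there, and its line spans that gap.

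Young adults give the sex comparison with 2 libraries per sex at 1 stage. Here all 10 eggshell genes were higher in hermaphrodites, where 29.3% of all tested genes were called higher in that sex. The log2 ratio was 4.11 ± 0.15 for cbd-1, 5.56 ± 0.51 for perm-2, 6.28 ± 0.36 for perm-4, 5.03 ± 0.25 for egg-1 and 3.91 ± 0.26 for egg-2. It was 3.99 ± 0.16 for chs-1, 4.57 ± 0.21 for cpg-1, 5.17 ± 0.20 for cpg-2, 6.31 ± 0.30 for cpg-3 and 3.22 ± 0.18 for egg-6. The errors are approximate standard errors taken from the test statistic, and adjusted p ran from 0.000439 to 0.00132 (edgeR quasi-likelihood test, Benjamini-Hochberg adjustment over all tested genes, threshold 0.05). The median of the 10 was 4.8, where the median of all tested genes was -0.32 (-0.62 when scaled by library size only). Nothing states that the libraries came from separate cultures, so these p-values reflect no more than the spread among the samples at hand.

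In the 3 larval ages compared pairwise by age, perm-2 alone was called higher in hermaphrodites, by a log2 ratio of 4.01 ± 0.73 (adjusted p = 0.0116, edgeR quasi-likelihood test), where 1.34% of all tested genes were called higher in that sex. The other 9 had positive log2 ratios between 0.67 (egg-2) and 2.94 (cpg-3), with adjusted p from 0.0518 to 0.568. In all, 7 of the 10 had an unadjusted p under 0.05, and the median of the 10 was 1.77, against -0.04 for all tested genes. The count moved with the late L4 libraries, as did that of all tested genes: without both of them, or without the male one alone, 0 of the 10 were called (0 and 2 at an unadjusted p under 0.05), and without the late L3 or the early L4 pair 9 and 7 were. Of all 15924 tested genes, 0 were called without the late L4 pair, 7 without the male late L4 library and 0 without age as a block, against 1442 with every library and the block. The count of the 10 was 0 without age as a block (4 at an unadjusted p under 0.05), 7 with DESeq2 and 9 with limma-voom. Calls higher in hermaphrodites over all tested genes were 414 with DESeq2 and 770 with limma-voom. The edgeR fit with every library and the block had 214.

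Across all 5 ages, 7 of the 10 were called higher in hermaphrodites, where 3.56% of all tested genes were called higher in that sex. The log2 ratio was 2.44 ± 0.70 for cbd-1, 4.65 ± 0.73 for perm-2, 4.67 ± 1.02 for perm-4, 3.25 ± 0.86 for egg-1, 2.46 ± 0.65 for chs-1, 3.37 ± 0.87 for cpg-2 and 4.28 ± 1.04 for cpg-3. Adjusted p for these 7 ran from 0.0157 to 0.0481 (edgeR quasi-likelihood test). It was 0.126 for egg-2, with a log2 ratio of 1.97 ± 0.86, 0.0799 for cpg-1, with 2.60 ± 0.93, and 0.0788 for egg-6, with 1.69 ± 0.60. The median of the 10 was 2.92, against -0.21 for all tested genes. This fit shares libraries with the larval and young adult fits, and its count also moved: 0 were called without the late L4 pair, without the 48–52 h pair or without the male late L4 library alone, where 8, 7 and 7 had an unadjusted p under 0.05. Calls higher in hermaphrodites over all tested genes were 29, 21 and 30 in these fits, against 567 with every library. Without age as a block, and with DESeq2 or limma-voom, 10 were called. All tested genes called higher in hermaphrodites then numbered 1527, 1935 and 1840, in that order.

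**Figure D3:**
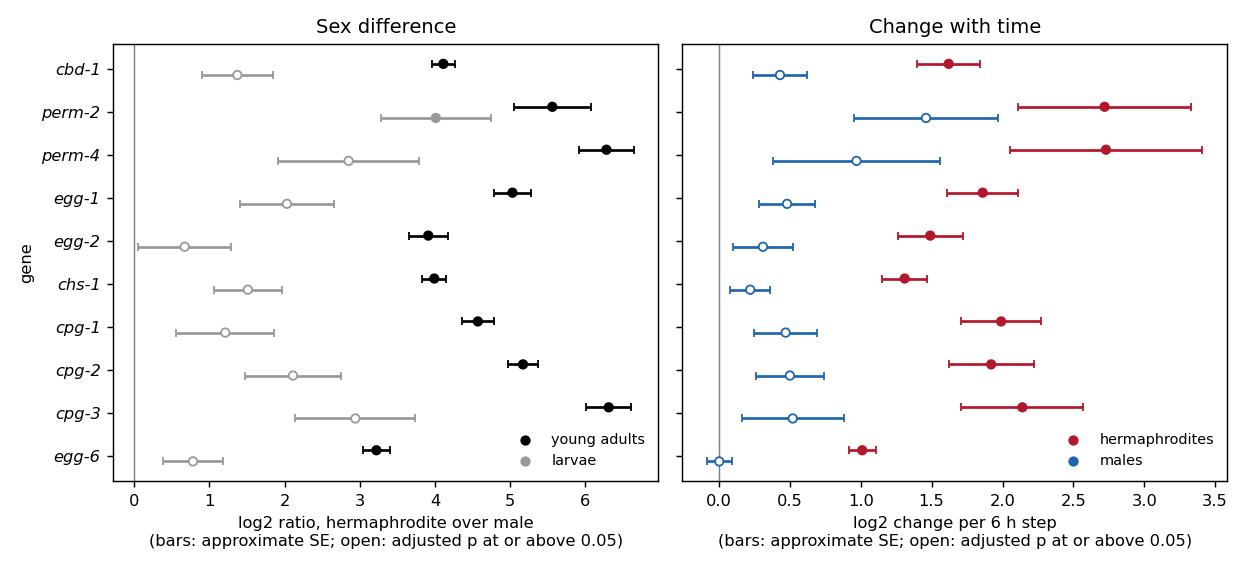
Fitted values of the 10 eggshell genes with approximate standard errors as bars: the log2 ratio of hermaphrodite over male in young adults and in larvae (left), and the log2 change per 6 h step in hermaphrodites and in males (right). Filled points passed an adjusted p of 0.05 in the edgeR quasi-likelihood test; all 10 are filled in young adults and for the hermaphrodite slope, and none for the male slope; in larvae only perm-2 is filled.

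Over age, all 10 eggshell genes rose in hermaphrodites, where 20.9% of all tested genes were called rising. The slope per 6 h step on the log2 scale was 1.62 ± 0.22 for cbd-1, 2.72 ± 0.61 for perm-2, 2.73 ± 0.68 for perm-4, 1.86 ± 0.25 for egg-1 and 1.49 ± 0.23 for egg-2. It was 1.31 ± 0.16 for chs-1, 1.99 ± 0.28 for cpg-1, 1.92 ± 0.30 for cpg-2, 2.14 ± 0.43 for cpg-3 and 1.01 ± 0.096 for egg-6. Adjusted p ran from 0.00129 to 0.0151, and the median slope was 1.89, against -0.15 for all tested genes. Of all genes called in this fit 55.4% were rising, and 44.4% when scaled by library size only; all 10 eggshell genes had positive slopes under both.

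In males, 0 of the 10 slopes were called with edgeR's quasi-likelihood test, where 0.276% of all tested genes were called rising. The fitted male slopes per 6 h step lay between 0.0016 (egg-6) and 1.46 (perm-2), with a median of 0.47 against -0.01 for all tested genes and adjusted p from 0.17 to 0.997. The 3 with an unadjusted p under 0.05 were cbd-1, perm-2 and egg-1. DESeq2 called 1, perm-2, with a slope of 1.58 and an adjusted p of 0.0022, and limma-voom called 0. Over all tested genes DESeq2 called 1021 rising and limma-voom 523, against 44 with edgeR. Of all genes called with edgeR 46.8% were rising, and 66.7% with RLE scaling.

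The difference between the slopes, hermaphrodite minus male, was called for 9 of the 10, all but perm-2, where 10.2% of all tested genes were called steeper in hermaphrodites. It lay between 0.98 ± 0.12 for egg-6 and 1.55 ± 0.25 for cpg-3 among those called, and was 0.82 ± 0.36 for perm-2 (adjusted p = 0.15, edgeR quasi-likelihood test). The median of the 10 was 1.28, against -0.05 for all tested genes. Calls dropped to 0 of 10 when any age but late L3 was left out, when the male late L4 library was left out, and when the oldest male library was, and the lowest adjusted p among the 10 in these fits ran from 0.0503 to 0.0894. At an unadjusted p under 0.05 these fits had 9 or 10 of the 10. In the same fits 0 of the 15924 tested genes were called, or 3 without the male library of 54–58 h. With every library DESeq2 called 10 of the 10. It called 2996 of all tested genes steeper in hermaphrodites, against 1627 with edgeR. Of all genes called with every library, 64.6% were steeper in hermaphrodites, and 44.8% when scaled by library size only.

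By size alone, most steps of 4-fold or more in hermaphrodites fell in early and late L4. At least 4-fold above the age before, on CPM + 1, were 5 of the 10 in early L4 (5.19% of all tested genes), 9 in late L4 (2.66%), 1 at 48–52 h (0.396%) and 0 at 54–58 h (0.132%). The 5 in early L4 were perm-2, egg-1, cpg-1, cpg-2 and cpg-3, the 9 in late L4 were all but egg-6, and the 1 at 48–52 h was perm-4. Males had 0, 1, 0 and 0 such steps (1.90%, 2.20%, 0.264% and 0.276% of all tested genes), and the 1, in late L4, was perm-2. In that male late L4 library the summed yolk protein genes stood at 394 CPM, against 5.62 CPM in early L4 males. Whether the male step and slope of perm-2 share a source with that rise was not tested.

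The genes differed in how much of their highest hermaphrodite level was in place in larvae. In early L4 the share was 15.4% for egg-6 and 9.53% for chs-1, against 0.943% for perm-2 and 0.0746% for perm-4. In late L4 it was 40.4% for chs-1, 35.4% for egg-6, 35.1% for cbd-1, 34.3% for cpg-2, 31.2% for cpg-3, 29.5% for egg-1, 28.6% for cpg-1, 24.9% for egg-2, 23.8% for perm-2 and 15.5% for perm-4. Thus the chitin synthase gene was furthest along in late L4 larvae and perm-4 the least. With 1 library per age this order has no replicate check.

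**Figure D4:**
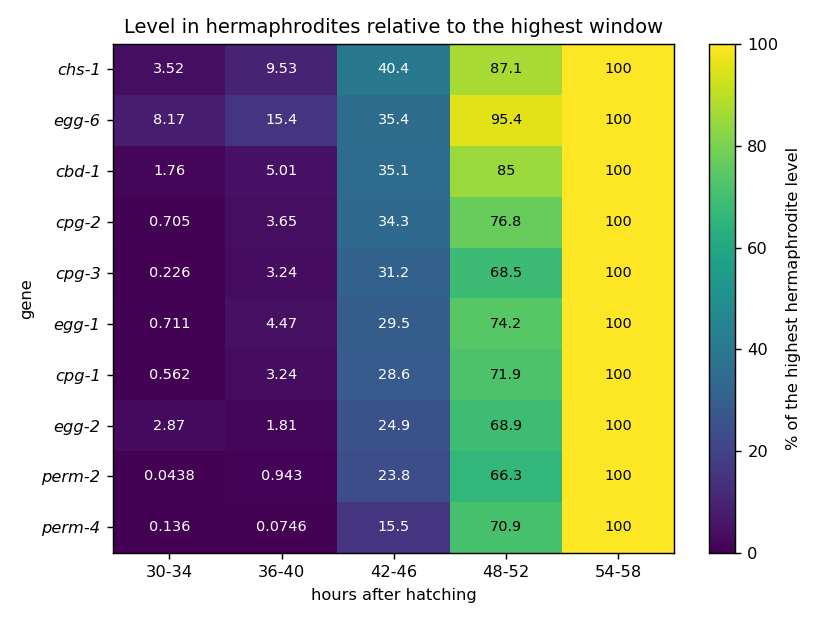
Level of each eggshell gene (down) in hermaphrodites at each age (across), printed and coloured as a percentage of the gene's own highest hermaphrodite level. In late L4 the 10 genes lie between 15.5% (perm-4) and 40.4% (chs-1).

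By size between the sexes, at least 4-fold higher in the hermaphrodite library were 0 of the 10 in late L3 (0.226% of all tested genes), 2 in early L4 (0.553%), 9 in late L4 (1.70%), 10 at 48–52 h (4.92%) and 10 at 54–58 h (7.10%). The 2 early L4 genes were perm-2 and cpg-3, and the gene that had not passed by late L4 was egg-6.

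Per length of exon, cpg-1, cpg-2, cbd-1 and perm-2 were the 4 most abundant of the 10 in young adult hermaphrodites. In RPKM (CPM divided by the exon length in kb, mean ± SD of the 2 young adult libraries of a sex), cpg-1 had 1174 ± 271, cpg-2 1031 ± 192, cbd-1 979 ± 112 and perm-2 807 ± 231 in hermaphrodites. There followed cpg-3 with 454 ± 120, egg-1 with 385 ± 80.5, perm-4 with 237 ± 57.1, chs-1 with 230 ± 22.4, egg-2 with 139 ± 36.2 and egg-6 with 111 ± 3.72. The order differed between the 2 hermaphrodite libraries for cbd-1 and cpg-2 and for perm-4 and chs-1. Neighbours in the order differed by more than either SD only between perm-2 and cpg-3, between egg-1 and perm-4 and between chs-1 and egg-2. The 2 libraries differ in age, so the SD includes the change with age and does not measure how firm the order is. In males the order was another: cbd-1 led with 56.3 RPKM, then came cpg-1 with 48.9 and cpg-2 with 28.4, and cpg-3 with 5.63 and perm-4 with 3 were the lowest.

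The make-up of the group was not the same in the oldest library of each sex. Of the summed RPKM of the 10 genes at 54–58 h, cpg-3 made up 8.49% in hermaphrodites and 2.86% in males, cpg-2 18.4% in hermaphrodites and 12.6% in males, and perm-2 15.3% in hermaphrodites and 10.8% in males. In the other direction, cbd-1 made up 16.7% in hermaphrodites and 26.5% in males, and egg-6 1.79% in hermaphrodites and 5.67% in males.

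**Figure D5:**
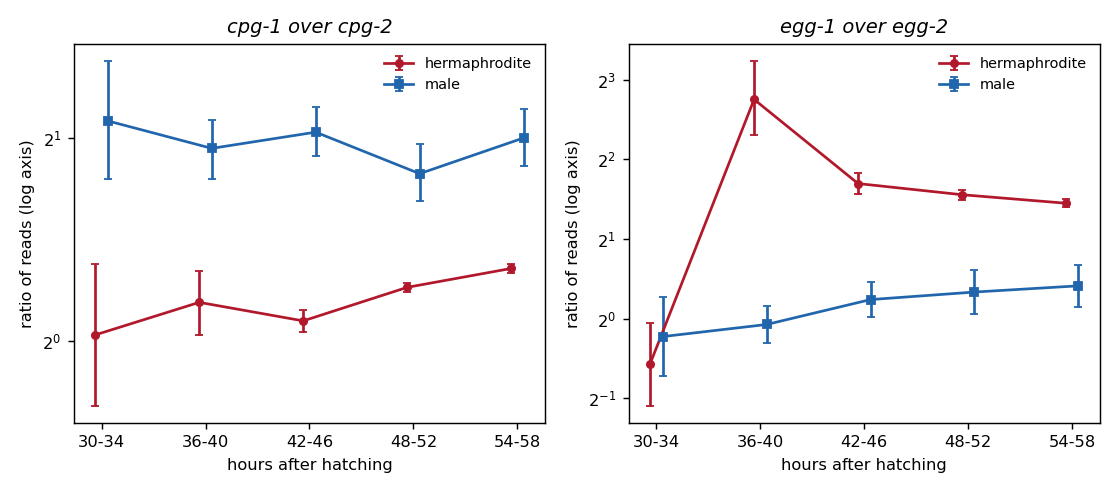
Ratio of the reads of cpg-1 to cpg-2 and of egg-1 to egg-2 in each library, on a log axis, against age, with hermaphrodites and males as separate lines and 95% intervals that cover counting error only. The cpg-1 to cpg-2 ratio lies between 1.02 and 1.28 in hermaphrodites and between 1.77 and 2.12 in males.

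The lowest male shares among the eggshell genes can be set beside those of the yolk protein genes, which are made in the hermaphrodite intestine. Male levels as a share of hermaphrodite levels in late L4, 48–52 h and 54–58 h were 4.05%, 0.346% and 1.18% for the summed yolk genes. They were 4.96%, 1.61% and 2.40% for perm-2, 7.36%, 1.21% and 1.31% for perm-4 and 5.35%, 1.38% and 1.14% for cpg-3. The summed yolk genes, perm-2 and perm-4 were lowest at 48–52 h, and cpg-3 was lowest at 54–58 h. Of the other 7 genes none was under 2.31% at any of these ages. At 48–52 h, where the yolk share was 0.346%, none of the 10 genes was under 1.21%. The part of yolk-bearing tissue in the male values was not tested.

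Other genes of the shell pathway were read in the same fits, as lists put together from textbook roles. A further list, of other genes named cpg, was matched by name alone. Of 5 genes of egg activation at the oocyte cortex, 4 were higher and 1 was lower in young adult hermaphrodites. The pseudo-phosphatase genes egg-5 and egg-4 had log2 ratios of 4.11 ± 0.19 and 3.33 ± 0.23. The gene that was lower, spe-11, with -5.27 ± 1.15, encodes a protein that the sperm brings in. Of all tested genes, 29.3% were called higher and 32.7% lower in hermaphrodites. Adjusted p for these 3 ran from 0.000492 to 0.0119 (edgeR quasi-likelihood test).

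Of 4 genes that supply amino sugars, the building blocks of chitin, 3 were higher in young adult hermaphrodites and 0 were lower, where 29.3% and 32.7% of all tested genes were. Among them gfat-2, which encodes an enzyme at the entry of that pathway, reached 1092 CPM in the older young adult hermaphrodites, against 37.5 CPM in males of that age, and had a log2 ratio of 4.66 ± 0.20. All 9 genes of chondroitin synthesis were higher, against the same 29.3% of all tested genes, with a median of 1.61. The one with the highest mean CPM over all 10 libraries, sqv-4, which encodes the enzyme that makes UDP-glucuronic acid, had 1.25 ± 0.17.

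Of 9 genes of the permeability barrier, 7 were higher and 0 lower in young adult hermaphrodites, where 29.3% and 32.7% of all tested genes were, with a median log2 ratio of 1.78. The fatty acid synthase gene fasn-1, the one with the highest mean CPM of that list over all 10 libraries, was at 0.016 ± 0.19 (adjusted p = 0.95, edgeR quasi-likelihood test). Of the 8 tested genes among 10 others named cpg, 3 were higher and 2 were lower, near the shares of 29.3% and 32.7% of all tested genes, and cpg-9 was at 1.99 ± 0.28.

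Over all 5 ages, the calls higher in hermaphrodites were 2 of 5 for egg activation, 1 of 4 for amino sugars, 0 of 9 for chondroitin synthesis, 0 of 9 for the permeability barrier and 1 of 8 for the other cpg genes, where 3.56% of all tested genes were called higher. At an unadjusted p under 0.05 there were 1 for chondroitin synthesis and 3 for the permeability barrier. The other cpg genes had a median slope of -1.11 in hermaphrodites, against 1.99, 1.92 and 2.14 for cpg-1, cpg-2 and cpg-3. Of these 8 others, 2 were called rising and 2 falling, where 20.9% and 16.9% of all tested genes were.

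Across the 10 libraries the eggshell genes ran closely together. Pearson's r of log2(CPM + 1) between a gene and the median profile of the other 9 lay between 0.951 for egg-2 and 0.998 for cbd-1. The 10 genes outside the group most like its median profile, of 10797 with at least 5 CPM on average, were gfat-2 (r = 0.9989), gln-6 (0.9984), puf-5 (0.9972), memi-3 (0.9954), pos-1 (0.9953), cey-2 (0.9952), cgh-1 (0.9951), rec-8 (0.9944), clec-88 (0.9941) and gyg-2 (0.9938). Of these, puf-5 and pos-1 were on the oocyte marker list. Of all genes considered, 608 (5.63%) reached an r of 0.95. The 10 points are the same libraries for every gene and follow age and sex, so r is given as a description.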

How the data were processed

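RNA-seq of whole him-5 worms gave 1 library per sex at each of 5 ages. The authors deposited read counts per sequence name. Per the submitters' processing notes, CASAVA 1.8 and HTSeq were used. An aligner, a build, an HTSeq version or a strand setting was not given in the sources used here. The 5 totals that name no gene were left out of library sizes: no feature (2.18% to 3.98% of gene reads and these totals together), ambiguous (0.321% to 0.745%), too low quality, not aligned (3.31% to 25.4%) and not unique (11.2% to 17.8%). Of 46589 names, 46180 matched Ensembl release 115 of WBcel235 and 409 did not; coordinates are from that annotation.

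From the counts, 15924 genes were kept (1 CPM or more in 2 or more libraries), scaled by TMM and tested with edgeR 4.0.16 (quasi-likelihood, R 4.3.3), with Benjamini-Hochberg adjustment over all of them and 0.05 as the threshold. Age was a block in the sex difference over 5 ages and in larvae and in the difference of slopes; the young adult fit had none; slopes per sex came from 1 fit of all libraries. Alternatives were limma 3.58.1 (voom), DESeq2 1.42.0, other scalings and filters, rRNA and mitochondrial genes left out, and libraries left out. Leaving out the male late L4 or the oldest male library was chosen after seeing the data. The fits were also run on simulated data, with the same spread for every gene and no change with age beyond the planted one. That setting differs from these libraries, so no conclusion is drawn from it.

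Same-numbered libraries share an age, per the labels, which is where the pairing comes from. The deviations of the 2 sexes from their own means correlated at every age, with r over genes from 0.248 to 0.467. No 2 libraries of a sex agreed within sampling noise: chi-square per gene was at least 27.4.

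The 10 genes, the pathway lists and the marker lists were chosen with earlier results of these data known. Named were all 10 genes, up to 3 called genes per pathway list with the largest log2 ratio over 5 ages (else the most abundant), the 10 most alike in pattern, and the leading marker of a list.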

Additional observations from a re-analysis of the deposited data

Results flagged for a closer look

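By the test of the slopes' difference, the change over age differed between the sexes for 9 of the 10 eggshell genes. Steeper in hermaphrodites by that test were 10.2% of all tested genes. As described above, the 9 calls were lost when any age but late L3 was left out. They were also lost without the male late L4 library or the oldest male library. The hermaphrodite minus male slope per 6 h step on the log2 scale was 1.14 for cbd-1, 1.52 for perm-4, 1.33 for egg-1, 1.22 for egg-2, 1.06 for chs-1, 1.47 for cpg-1, 1.37 for cpg-2, 1.55 for cpg-3 and 0.98 for egg-6. Adjusted p ran from 0.0239 to 0.0398 (edgeR quasi-likelihood test, age as a block). No library of a sex stood apart from the other 4 by Dixon's test in any of the 20 gene and sex groups. The libraries of a sex differ in age, so this test cannot tell a stray library from a change with age. The chance rate of about 1 in 20 holds only for replicates of 1 condition, so no conclusion is drawn.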

How the results depend on the processing

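In young adults 10 of 10 eggshell genes were called under every alternative that tested all 10, and 9 of 9 with at least 5 CPM in 5 libraries, a filter that perm-4 did not pass. The hermaphrodite slope was called for 9 or 10; perm-4 lost the call without the hermaphrodite late L3 library (2.55, adjusted p = 0.0562, edgeR quasi-likelihood test). Of the sex difference over 5 ages, 7 calls became 2 with the stricter filter, 0 without the male late L4 library, and 0 to 9 when 1 age was left out. Over all tested genes the calls higher in hermaphrodites were 567 of 15924 in the main fit. They were 304 of 10223 with the stricter filter and 30 without that male library. In larvae 1 call became 8 with no filter, 7 with DESeq2, 9 with limma-voom, 0 without the male late L4 library, and 0 to 9 with 1 age left out. All-gene calls higher in larval hermaphrodites moved too. They were 214 in the main fit, 465 of 24137 genes with no filter, 414 with DESeq2, 770 with limma-voom and 2 without that male library. DESeq2 called 1 male slope. The 9 differences of slopes became 0 without the male late L4 library or that of 54–58 h, and 0 to 8 with 1 age left out. All-gene calls steeper in hermaphrodites were 0 and 3 without these male libraries, against 1627 in the main fit. The cause of these moves was not tested.

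The pairing by age mattered as follows: with no replicate block, 10 were called over 5 ages, 0 in larvae and 7 for the difference of slopes, and with the replicate block the young adult count was 10. Calls over all tested genes, higher or steeper in hermaphrodites, were 1527, 0, 1909 and 4168 in these fits, in that order. The main fits had 567, 214, 1627 and 4661.

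Of 794 single-gene values under alternatives, 790 kept their direction. The other 4 were egg-2 in larvae, at -0.25 without the late L4 pair and -0.29 without that male library alone, and the male slope of egg-6, at -0.0028 without the male early L4 library and -0.0077 without the oldest male library. With the pair of 1 age left out the value of egg-2 ran from -0.25 to 1.48, and with 1 male library left out that of egg-6 ran from -0.0077 to 0.08. Depth limits perm-2 and perm-4 in young larvae, where they had few reads.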

Other observations

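Set against the oocyte markers of the same library, the eggshell genes did not all follow the same course. Per 100 CPM of the 6 summed oocyte markers, cbd-1 had 140, 182, 129, 113 and 105 CPM in hermaphrodites in order of age, against 105, 124, 138, 147 and 127 CPM in males. On the same scale egg-6 had 55.8, 48.2, 11.2, 10.8 and 8.99 CPM in hermaphrodites, against 58.0, 38.9, 26.2, 24.0 and 21.7 CPM in males. For perm-4 it was 0.742, 0.186, 3.90, 6.43 and 7.17 CPM in hermaphrodites, against 0.622, 0, 2.16, 1.64 and 2.11 CPM in males. These 3 genes were chosen after their values were seen, and no test was run on them. Less varied in hermaphrodites from early L4 on were cpg-1, with 68.1, 60.7, 54.9 and 60.4 CPM, and cpg-3, with 14.6, 14.2, 11.2 and 13 CPM. In late L3 the marker sum itself was 56.2 CPM in hermaphrodites, against 69.9 CPM in males.

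Summed markers of other cell types were also read in the same libraries. The summed level of 6 sperm markers, led by spe-41, was 28.0, 96.6, 42.5, 9.31 and 4.46 CPM in hermaphrodites in order of age, against 146, 244, 377, 402 and 482 CPM in males. That of 5 markers of mitotic and early meiotic germ cells, led by gld-1, was 183, 277, 613, 1199 and 1293 CPM in hermaphrodites, against 190, 242, 232, 235 and 228 CPM in males. These 5 were not alike. In the oldest libraries gld-1 and glp-1 had 545 and 476 CPM in hermaphrodites, against 48.7 and 54.7 CPM in males. There htp-3 had 116 against 22.5 CPM, him-3 84 against 52.4 CPM and syp-1 71.8 against 49.2 CPM. The sum of 6 early embryo markers, led by nhr-2, reached 18.5 and 35.0 CPM in hermaphrodites at the young adult ages, against 0.795 and 1.46 CPM in males. Of these hermaphrodite sums nhr-2 made up 14.1 and 25.6 CPM and pes-10 2.62 and 7.36 CPM. The others, end-1, end-3, tbx-37 and tbx-38, did not pass the filter on low counts. At 48–52 h tbx-37 was lower in hermaphrodites, at 0.25 CPM against 0.557 CPM in males. The 4 markers of male neurons, led by pkd-2, summed to 1.04, 0.343, 0.801, 0.562 and 0.203 CPM in hermaphrodites, against 6.52, 55.4, 106, 132 and 121 CPM in males. Body muscle markers, led by unc-54, summed to 2619 CPM in the oldest hermaphrodites, against 6499 CPM in the oldest males. In late L3 the muscle sum was 5941 CPM in hermaphrodites, against 5841 CPM in males. The part of these cell types in the eggshell values was not tested.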
